A study of Saccharomyces cerevisiae with 12 samples.

Results

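Transcripts of 8 genes for the uptake and breakdown of proline, arginine and gamma-aminobutyric acid (GABA) were followed in Saccharomyces cerevisiae deprived of nitrogen or of carbon. The genes PUT1, PUT2, PUT4, CAR1, CAR2, UGA1, UGA2 and UGA4 were chosen by name as members of these pathways, with no threshold on a measured value, though with earlier results of these data known, and all 8 are among the 6256 genes of the array. Yeast uses these compounds as nitrogen sources when ammonium or another preferred source is lacking. While a preferred source is present, nitrogen catabolite repression keeps GATA-type activators away from such genes, and each pathway is in addition switched on by its own substrate through a dedicated regulator. The proline and arginine routes share pyrroline-5-carboxylate as an intermediate and end in glutamate, whereas the GABA shunt delivers succinate to the citric acid cycle.

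The cells were FY4, a prototrophic MATa strain derived from S288C, grown on filters in YNB minimal medium with glucose and ammonium until the starvation began. For nitrogen starvation the filters went to medium with glucose and no ammonium, and for carbon starvation to medium with ammonium and no glucose. Each of the 12 two-colour Agilent arrays held Cy5-labelled (red) RNA of starved cells, sampled after 10, 30, 60, 120, 240 or 480 min of 1 starvation, and Cy3-labelled (green) RNA of the pre-starvation zero timepoint. There was 1 array per starvation and time and no dye swap, so the 6 times of a starvation served as its observations, and the spread within a starvation includes its course over time. Values are log2 ratios of starved over pre-starvation signal after each array was scaled to equal red and green totals. A value of 0 is thus no change relative to the total signal, and each unit is a doubling. A change in every cell and a change in a share of the cells cannot be told apart in such bulk RNA.

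The arrays did not measure the starved RNA equally well. On 8 arrays 84.8 to 93.4% of spots had a red signal well above background, but only 42.7 to 78.4% did on the other 4, which are nitrogen starvation at 10 min and carbon starvation at 10, 30 and 60 min. The identity of these 4 arrays is also in doubt. Their deposited ratios correlated with the columns of the same name in the study's own ratio table at r = 0.03 to 0.62 across probes, whereas the other 8 arrays reached r of at least 0.999. This check covered 1764 to 1926 probes per array. Each of the 4 correlated best with a column of another name, the nitrogen 10 min array and the carbon 10 and 30 min arrays with nitrogen at 30 min (r = 0.71, 0.64 and 0.70) and the carbon 60 min array with carbon at 240 min (r = 0.51). Whether the arrays, their labels or the table differ could not be settled, and the values of these 4 arrays are given below under the times in their labels. In the green channel the share was 84.8 to 88.5% throughout. The comparison of the starvations was therefore made over all times and also over the late times alone (120, 240 and 480 min), which hold none of the 4 arrays. As a check of the strain, all 6 a-cell genes examined (MFA1, MFA2, STE2, STE6, BAR1 and ASG7) were well above background in the green channel on all 12 arrays. The alpha-factor genes MF(ALPHA)1 and MF(ALPHA)2 were so on 0 of 12. The alpha-cell genes SAG1 and STE3 were above background on 12 and 10 arrays, at median green signals of 247 and 139.

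In nitrogen starvation the ratios of all 8 genes were higher from 60 min on, or from 120 min on for UGA2, which has no value at 60 min, than at 10 and 30 min. At 10 min their log2 ratios lay between -2.15 and 0.63 and at 30 min between -0.95 and 1.54. At 60 min the 7 genes with a value lay between 1.77 and 6.11, with a median of 4.52, and at 120 min all 8 lay between 2.02 and 6.36. By 480 min they lay between 1.11 and 3.36. In carbon starvation the 8 genes parted. Their log2 ratios ranged from -1.61 to 1.22 over the arrays at 10, 30 and 60 min, and at 120 min they spread from -0.53 for UGA4 to 3.53 for UGA2.

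**Figure D1:**
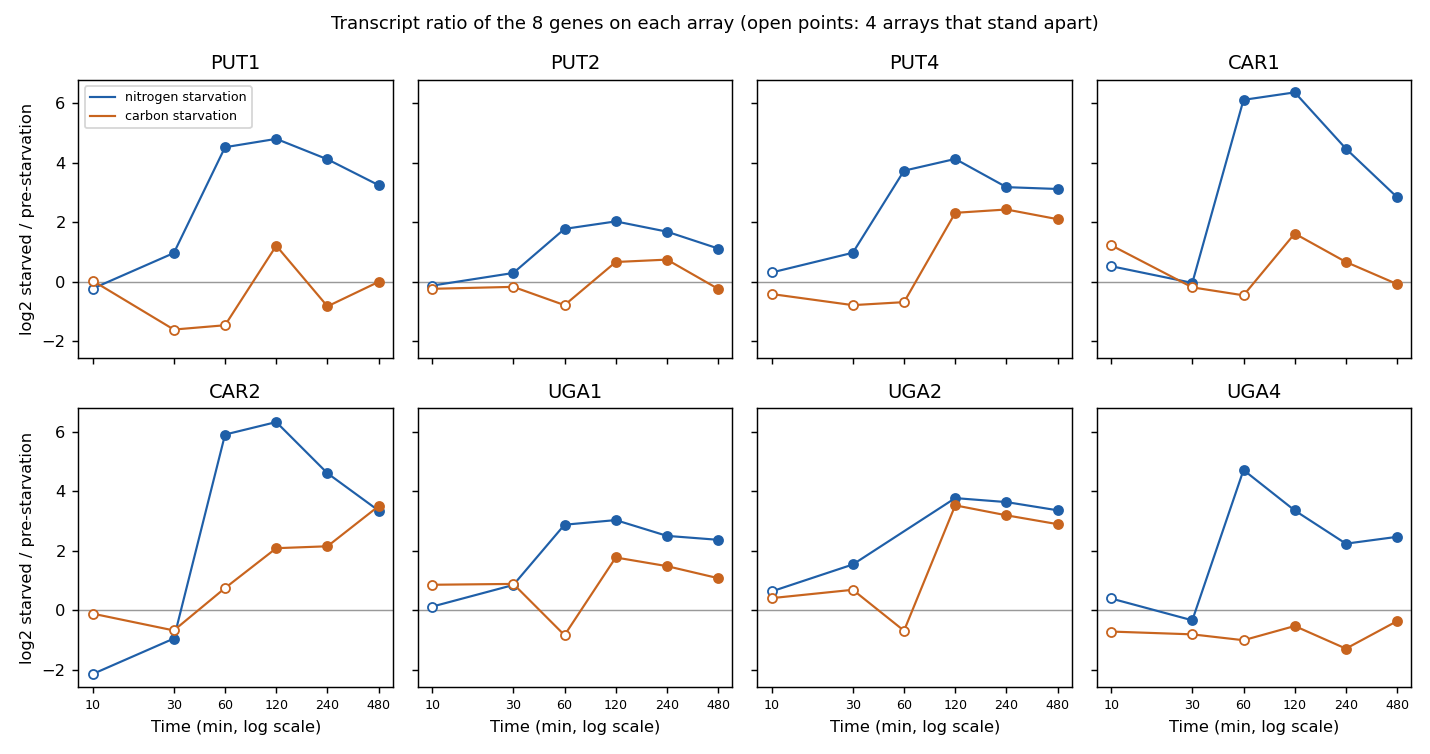
Log2 ratio of starved over pre-starvation signal (y axis) against time in minutes (x axis, log scale) for each gene, in nitrogen starvation (blue) and carbon starvation (orange), 1 array per point; open points are the 4 arrays that stand apart, and UGA2 has no value in nitrogen starvation at 60 min. In nitrogen starvation the 7 genes with a value at 60 min were between 1.77 and 6.11, while in carbon starvation UGA4 lay below 0 on all 6 arrays after equal totals, a sign that its mean over all times loses under normexp with equal totals (0.90).

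The 2 permeases behaved differently in carbon starvation. PUT4 (YOR348C), the high-affinity proline permease, had log2 ratios of 0.31, 0.97, 3.73, 4.12, 3.18 and 3.11 in nitrogen starvation at the 6 times in order. In carbon starvation its ratios were -0.42, -0.79, -0.69, 2.31, 2.42 and 2.10. PUT4 was high on the arrays from 60 min in nitrogen starvation and on those from 120 min in carbon starvation. The carbon arrays before 120 min are all of doubtful identity. The start of the rise in carbon starvation therefore cannot be dated, nor a delay between the starvations shown. The late values of PUT4 did not overlap between the starvations. Its late mean was 3.47 ± 0.57 in nitrogen starvation and 2.28 ± 0.17 in carbon starvation (SD, n = 3 each), a difference of 1.19 (95% interval 0.39 to 2.00, limma adjusted p = 0.0393).

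UGA4 (YDL210W), the GABA permease, had ratios of 0.39, -0.34, 4.72, 3.35, 2.24 and 2.47 in nitrogen starvation. In carbon starvation it was at -0.72, -0.81, -1.01, -0.53, -1.29 and -0.36 after equal totals. These values are below 0, but the mean over all times was not called and turned to 0.90 under normexp with equal totals. Relative to the median of all genes on the same array they were -0.16, -0.34, -0.06, -0.72, -1.19 and -0.06. The late arrays did not overlap. The late means were 2.69 ± 0.59 in nitrogen starvation and -0.73 ± 0.49 in carbon starvation (SD, n = 3 each). The late difference was 3.42 (95% interval 2.53 to 4.31, limma adjusted p = 0.000286, the lowest of the 8 genes). UGA4 was also the dimmest member. Its red signal lay between 135 and 4461 in nitrogen starvation and between 91.6 and 255 in carbon starvation, where it was well above background on 2 of 6 arrays (120 and 480 min). The size of its values therefore moved with the background correction. With normexp correction, which adds a constant to both channels, the late difference was 1.27 after loess and 1.64 after equal totals, both still called. The late fall in carbon starvation (limma adjusted p = 0.0409) was not called with no further scaling (-0.61), under either normexp setting (-0.24 and -0.04) or in the deposited series table. It was also lost without the carbon 120 min, the carbon 240 min or the nitrogen 240 min array (-0.83 to -0.45, limma adjusted p = 0.0557 to 0.283).

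Of the proline enzymes, PUT1 (YLR142W) encodes the mitochondrial proline oxidase, which starts proline breakdown. Its log2 ratios were -0.24, 0.96, 4.52, 4.80, 4.11 and 3.24 in nitrogen starvation. In carbon starvation they were 0.03, -1.61, -1.47, 1.21, -0.83 and -0.01, with no array above 1.21. The late arrays did not overlap, since the lowest in nitrogen starvation was at 3.24. The late means were 4.05 ± 0.78 in nitrogen starvation and 0.12 ± 1.03 in carbon starvation (SD, n = 3 each), a difference of 3.93 (95% interval 2.73 to 5.13, limma adjusted p = 0.000682).

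PUT2 (YHR037W) encodes the next enzyme, pyrroline-5-carboxylate dehydrogenase. Its ratios in nitrogen starvation were -0.14, 0.29, 1.77, 2.02, 1.68 and 1.11, the lowest late values among the 8 genes. In carbon starvation they were -0.24, -0.18, -0.79, 0.66, 0.74 and -0.25. The late arrays did not overlap, and the late means of 1.61 ± 0.46 in nitrogen starvation and 0.38 ± 0.55 in carbon starvation (SD, n = 3 each) differed by 1.22 (95% interval 0.36 to 2.08, limma adjusted p = 0.0467). In late carbon starvation PUT2 was not called after equal totals. It was called with no further scaling, under both normexp settings and in the series table.

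The arginine enzymes had the highest ratios of the 8 genes in nitrogen starvation at 60, 120 and 240 min. CAR1 (YPL111W), the arginase that splits arginine into ornithine and urea, had ratios of 0.52, -0.04, 6.11, 6.36, 4.47 and 2.84 in nitrogen starvation. In carbon starvation it had 1.22, -0.19, -0.46, 1.61, 0.66 and -0.08. All late values in nitrogen starvation were above all late values in carbon starvation. The late means were 4.56 ± 1.77 in nitrogen starvation and 0.73 ± 0.85 in carbon starvation (SD, n = 3 each), a difference of 3.83 (95% interval 2.16 to 5.49, limma adjusted p = 0.00521).

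CAR2 (YLR438W), the ornithine transaminase, had ratios of -2.15, -0.95, 5.91, 6.33, 4.61 and 3.35 in nitrogen starvation. The value at 10 min rests on a red signal of 131 that was not well above background. In carbon starvation the ratios were -0.12, -0.68, 0.75, 2.09, 2.15 and 3.50. CAR2 thus fell with time after 120 min in nitrogen starvation while its values in carbon starvation were highest at 480 min, where the difference of nitrogen minus carbon was -0.15, against 4.24 at 120 min and 2.46 at 240 min. The late groups overlapped. Their means of 4.76 ± 1.50 in nitrogen starvation and 2.58 ± 0.80 in carbon starvation (SD, n = 3 each) differed by 2.18 (95% interval 0.70 to 3.66, limma adjusted p = 0.0406). This call was lost under all 5 other scalings and backgrounds tried, at differences of 1.83 to 2.00. Of the 5, no further scaling and the deposited series table hold nearly the same values, so any tally out of 5 counts near copies separately.

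In the GABA shunt, UGA1 (YGR019W) encodes GABA transaminase, which makes succinate semialdehyde. Its ratios were 0.12, 0.85, 2.88, 3.03, 2.50 and 2.37 in nitrogen starvation. In carbon starvation they were 0.86, 0.88, -0.84, 1.77, 1.48 and 1.08. UGA1 was above 0 on all late arrays of both starvations and higher in nitrogen starvation on each. The late means were 2.63 ± 0.35 in nitrogen starvation and 1.44 ± 0.35 in carbon starvation (SD, n = 3 each), a difference of 1.19 (95% interval 0.43 to 1.95, limma adjusted p = 0.0324).

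UGA2 (YBR006W) encodes succinate semialdehyde dehydrogenase, the last step of the shunt. Its ratios in nitrogen starvation were 0.63, 1.54, 3.77, 3.64 and 3.36 at 10, 30, 120, 240 and 480 min. The value at 60 min was left out because both of its spots carried an outlier mark. It was 3.62 in the alternative that kept such spots, which changed no call of UGA2. In carbon starvation the ratios were 0.41, 0.69, -0.69, 3.53, 3.19 and 2.89. The late groups overlapped, with means of 3.59 ± 0.21 in nitrogen starvation and 3.20 ± 0.32 in carbon starvation (SD, n = 3 each). UGA2 was the 1 member with no called difference. The late difference was 0.39 with a 95% interval of -0.34 to 1.11 (limma adjusted p = 0.441).

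**Figure D2:**
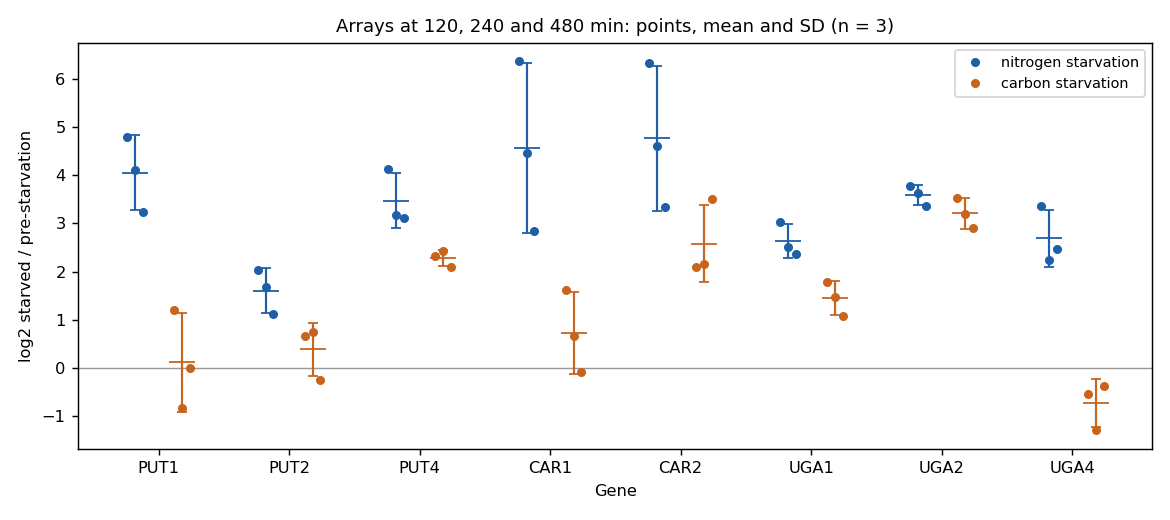
Log2 ratio of starved over pre-starvation signal (y axis) of each gene (x axis) on the arrays at 120, 240 and 480 min, drawn left to right in that order, for nitrogen starvation (blue) and carbon starvation (orange); horizontal bars are means and error bars the SD (n = 3). All nitrogen points lie above all carbon points for 6 of the 8 genes, the exceptions being CAR2 and UGA2.

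Against the pre-starvation level, all 8 genes rose in late nitrogen starvation (limma adjusted p under 0.05), where 33.1% of the 5703 genes tested were called higher. Their mean log2 changes ran from 1.61 for PUT2 to 4.76 for CAR2, with a median of 3.53 beside a median of 0.25 over all genes tested. In late carbon starvation, where 31.4% of the genes tested were called higher and 36.9% lower, 4 of the 8 rose and 1 fell. Those that rose were UGA2 (3.20), CAR2 (2.58), PUT4 (2.28) and UGA1 (1.44), and the 1 that fell was UGA4 (-0.73). PUT1 (0.12), PUT2 (0.38) and CAR1 (0.73) were not called. The median of the 8 was 1.09, beside -0.07 over all genes. The rises of all 8 genes in late nitrogen starvation, and those of the 4 in late carbon starvation, were called under every alternative in which the gene was tested.

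For the late difference between the starvations, 7 of the 8 genes were called higher in nitrogen starvation, beside 16.1% of all genes tested, and none was called lower, beside 5.86%. The median difference was 1.70 for the 8 genes and 0.23 for all genes. Late arrays did not overlap, with nitrogen above carbon, in 6 of the 8 genes and in 24.9% of all genes with complete late values. PUT1, CAR1 and UGA4 had the largest differences, 3.93, 3.83 and 3.42, and ranked 30, 36 and 61 from the top of 5703 genes. Under both normexp settings UGA4, at 1.27 and 1.64, was below CAR2, at 1.83 and 2.00, and so was not among the 3 largest of the 8. These 3 kept their calls whichever single array was left out and under each scaling tried. The other 4 calls were near the threshold, and each was lost on leaving out any 1 of several arrays. PUT2 and PUT4 each lost the call without the carbon 120, 240 or 480 min or the nitrogen 120 or 240 min array, at differences of 0.91 to 1.40 for PUT2 (limma adjusted p = 0.0564 to 0.155) and 0.87 to 1.34 for PUT4 (limma adjusted p = 0.0739 to 0.109). PUT2 also lost it with no filter on dim spots. UGA1 lost it without the carbon 240 or 480 min or the nitrogen 120 or 240 min array, at 0.99 to 1.25 (limma adjusted p = 0.0821 to 0.109). CAR2 lost it without the carbon 120 or 240 min or the nitrogen 120 or 240 min array, at 1.40 to 2.26 (limma adjusted p = 0.0549 to 0.158).

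Over all 6 times, each of the 8 genes was called higher in nitrogen starvation than before it, at mean log2 changes of 1.12 to 3.38, beside 22.1% of the 5578 genes tested. For CAR2 (2.85) this call was lost without the 60, 120, 240 or 480 min nitrogen array, at means of 2.15 to 2.75 (limma adjusted p = 0.0734 to 0.12). UGA4 (2.14) was not called under normexp with equal totals. In carbon starvation over all times 1 of the 8 was called, UGA2 at 1.67 (limma adjusted p = 0.0252), beside 16.4% of all genes called higher. UGA1 (0.87, limma adjusted p = 0.0758) was not called, but was without the carbon 60 min array (1.21), without the nitrogen 10 min array (0.87), over the 8 arrays that do not stand apart (1.44) and under the 5 other scalings and backgrounds (1.08 to 1.24). PUT4 was also called over those 8 arrays. The call of UGA2 was lost without the carbon 120, 240 or 480 min array, at means of 1.30 to 1.42 (limma adjusted p = 0.0802 to 0.0883).

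For nitrogen minus carbon over all times 2 of the 8 were called higher, beside 10% of all genes tested. These were PUT1 at 3.35 (95% interval 1.55 to 5.15, limma adjusted p = 0.0245) and UGA4 at 2.93 (95% interval 1.44 to 4.42, limma adjusted p = 0.0197). Neither was called with no further scaling, with each array centred on its median, under either normexp setting or in the series table. The difference was as low as 2.08 for PUT1 and 0.15 for UGA4. PUT1 also lost its call without the carbon 240 min or the nitrogen 60, 120 or 240 min array (2.97 to 3.27) and UGA4 without the nitrogen 120 min array (2.68). Over the 8 arrays that do not stand apart, PUT1 and UGA4 were the 2 members called. Single slides held 2 arrays in 2 cases, each with 1 array of each starvation but at different times. On the slide with nitrogen at 60 min and carbon at 120 min, nitrogen was higher for 7 of 7 members by 1.10 to 5.25. On the slide with nitrogen at 480 min and carbon at 30 min it was higher for 8 of 8 by 1.29 to 4.86. The median of all genes was 0.31 on the nitrogen 60 min array and 0.19 on the carbon 120 min array. It was -0.15 on the nitrogen 480 min array and -0.47 on the carbon 30 min array, which is among the 4 that stand apart. The share of all genes higher on each slide was not computed, and time differs with starvation on both.

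**Figure D3:**
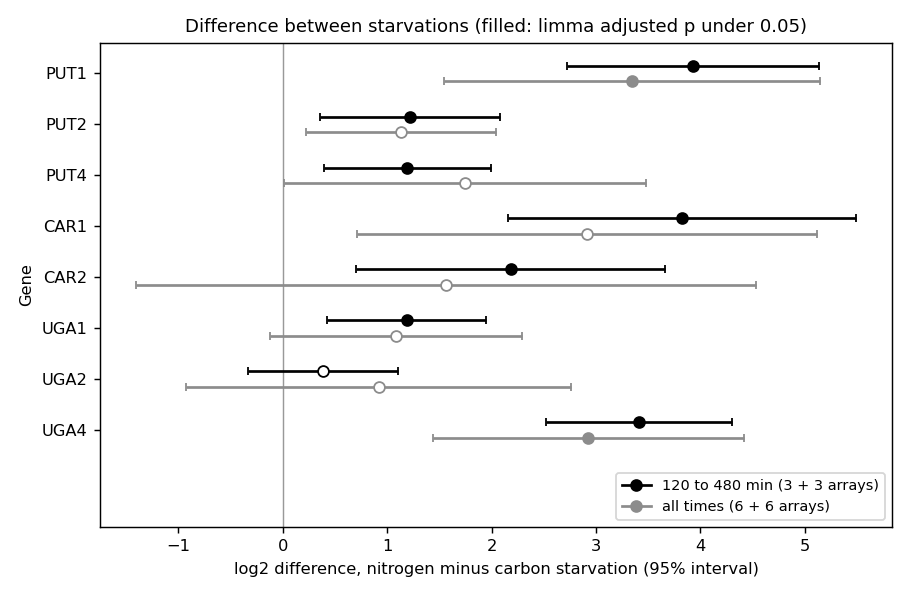
Fitted log2 difference of nitrogen minus carbon starvation (x axis) for each gene (y axis), over the arrays at 120, 240 and 480 min (black) and over all times (grey), with 95% intervals; filled points have a limma adjusted p under 0.05. At late times 7 genes are filled, all but UGA2, whereas over all times PUT1 and UGA4 are.

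The rise in nitrogen starvation fell between 30 and 60 min for all members with both values. CAR2 gained 6.86 between these 2 arrays, the most of all 5699 genes with both values, followed by CAR1 with 6.16 in place 2 and UGA4 with 5.05 in place 4. PUT1 gained 3.56 (place 22), PUT4 2.76 (place 70), UGA1 2.03 (place 220) and PUT2 1.48 (place 500), while the median gene gained 0.19. Both arrays of this step are among the 8 that do not stand apart. From 120 to 480 min the direction turned. CAR1 dropped by 3.53, the second largest drop among 5693 genes, and CAR2 dropped by 2.98, in place 9 from the bottom. PUT1 dropped by 1.56, and the other 5 members dropped by 0.41 to 1.01, around the median of all genes, which dropped by 0.62. UGA4 differed from the others in that its highest value was at 60 min, and it dropped by 1.36 from there to 120 min. The 6 other members with both values changed by 0.16 to 0.42 upward over that step, around the median of all genes, which rose by 0.26. With 1 array per time, these steps have no replicate and no test. For a straight trend of the log2 ratio with the log2 of time in nitrogen starvation, 0 of the 8 members passed limma's adjusted threshold, beside 2.08% of all genes. At an unadjusted limma p under 0.05 there were 5 (PUT1, PUT4, CAR2, UGA1 and UGA2). The share of all genes at this unadjusted threshold is not given, so the count has no background and shows no trend of the members. The fit also includes the nitrogen array that stands apart. The fitted slopes were 0.29 to 1.22 per doubling of time, all upward.

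The 8 genes followed each other closely in nitrogen starvation and less so in carbon starvation. Pearson's r between pairs of members had a median of 0.97 over the 6 nitrogen arrays (28 pairs, 0.87 to 1.00) and a median of 0.61 over the 6 carbon arrays (-0.15 to 0.96). Over all 12 arrays the median was 0.85, and over the 8 arrays that do not stand apart it was 0.87. In carbon starvation the 10, 30 and 60 min arrays stand apart, in nitrogen starvation the 10 min array alone. Starvation and array quality therefore cannot be told apart in this contrast. Pairs of other genes were not computed. These correlations are descriptions, since the points share arrays and a common reference. Among 2664 genes that varied at least as much as the median gene, AMD2, a putative amidase gene, was most like PUT1 (r = 0.977) and also most like UGA4 (r = 0.947) over the 12 arrays. YSP3, a putative protease precursor gene, was most like CAR1 (r = 0.955) and was in place 2 for PUT2 (r = 0.958), after ECM38, the gamma-glutamyltransferase gene (r = 0.97). CAR2 had PCI8 (r = 0.981) and PRB1, the vacuolar proteinase B gene (r = 0.971). PUT4 was most like SLX1 (r = 0.989) and MAF1, the RNA polymerase III repressor gene (r = 0.987). UGA1 was most like ADE16 (r = 0.962) and the aldehyde dehydrogenase gene ALD2 (r = 0.958), and UGA2 most like the potassium channel gene TOK1 (r = 0.99 over 11 arrays).

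Around these genes, 18 partners of the same pathways were described. They were regulators, the enzymes of proline synthesis, other transporters, and enzymes that make or use compounds of these pathways. In late nitrogen starvation 8 of the 18 rose and 3 fell, beside 33.1% and 20.7% of all genes, and in late carbon starvation 6 rose and 8 fell, beside 31.4% and 36.9%. For the late difference, 9 were called higher in nitrogen starvation and 3 lower, beside 16.1% and 5.86% of all genes, with a median of 0.97. The regulators gave no common picture. ARG81, an activator of CAR1 and CAR2 and repressor of arginine synthesis, had a late mean of 1.54 in nitrogen starvation and -0.07 in carbon starvation (difference 1.61, limma adjusted p = 0.02). ARG80, which acts with it, fell in both, by 2.12 in nitrogen starvation and by 1.44 in carbon starvation, the carbon call being lost under 1 of 5 other scalings. ARG82, the inositol polyphosphate kinase of that system, rose in both, with means of 0.85 in nitrogen starvation and 1.34 in carbon starvation, and its difference was called under 3 of 5 other scalings. PUT3, the activator of PUT1 and PUT2, was lower in nitrogen starvation, at -0.44, than in carbon starvation, at 0.70 (difference -1.15, limma adjusted p = 0.0329). Its late value in nitrogen starvation was not called, but was called lower under 4 of 5 other scalings.

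The proline synthesis genes PRO1, PRO2 and PRO3, which lead from glutamate to proline, were all called higher in late nitrogen than in late carbon starvation. PRO1 fell by 2.06 in nitrogen starvation and by 3.82 in carbon starvation. PRO2 fell by 0.89 in nitrogen starvation and by 2.05 in carbon starvation. PRO3 stood at 0.16 in nitrogen starvation, which was not called, and fell by 2.30 in carbon starvation. The call for the difference was lost under 2 of 5 other scalings for PRO1 and under 1 for PRO2. Other transporters of these compounds split too. GAP1, the general amino acid permease, had a late mean of 2.19 in nitrogen starvation and -1.98 in carbon starvation. The arginine permease CAN1 stood at -0.08 in nitrogen starvation, which was not called, and at -2.13 in carbon starvation. ALP1, a close relative of CAN1, was lower in nitrogen than in carbon starvation, at 0.31 in nitrogen starvation, not called, and 2.43 in carbon starvation, and its call for the difference was lost under 2 of 5 other scalings. ORT1, the mitochondrial ornithine carrier, was at 0.45 in nitrogen starvation, not called, and at -1.15 in carbon starvation.

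Further partners make or use compounds of the 3 routes. Urea from the arginase step is degraded by urea amidolyase, DUR1,2, and DUR3 takes up urea from outside the cell. DUR3 had a late mean of 4.95 in nitrogen starvation and -0.23 in carbon starvation, and DUR1,2 had 2.22 in nitrogen starvation and -2.50 in carbon starvation. GAD1, the glutamate decarboxylase that makes GABA, rose in both starvations, to 4.43 in nitrogen starvation and 5.28 in carbon starvation, and its difference was not called (limma adjusted p = 0.122), though 3 of 5 other scalings called it lower in nitrogen starvation. GDH2, which releases ammonium from glutamate, rose to 2.22 in nitrogen starvation and 4.20 in carbon starvation, a difference of -1.98 (limma adjusted p = 0.00278). GAD1 and UGA2, at the start and the end of the GABA shunt, thus rose in both starvations, as did UGA1 between them. UGA4, the permease, was above 0 late in nitrogen starvation and below 0 late in carbon starvation. Its call in late carbon starvation was lost under 8 of 15 alternatives.

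**Figure D4:**
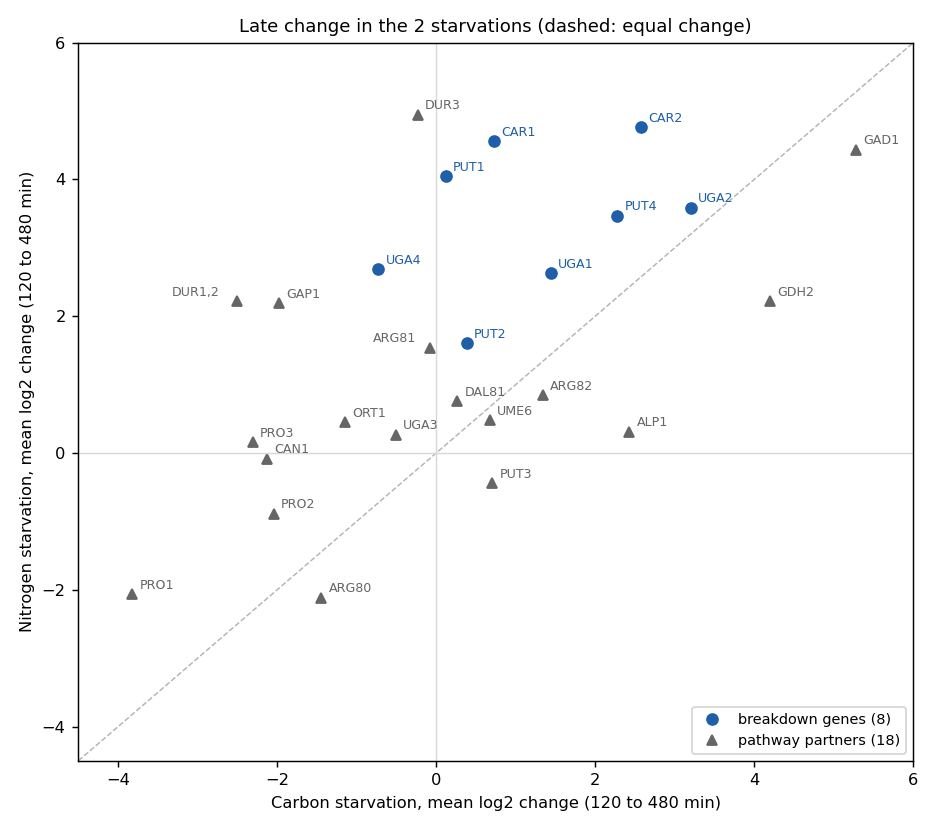
Mean log2 change over the arrays at 120, 240 and 480 min in nitrogen starvation (y axis) against carbon starvation (x axis) for the 8 breakdown genes (blue circles) and 18 pathway partners (grey triangles), with equal change dashed. PUT1, CAR1 and UGA4 lie far above the dashed line near 0 on the x axis, UGA2 lies close to the line at 3.59 in nitrogen and 3.20 in carbon starvation, and GDH2 and ALP1 lie below it.

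Genes for the use of allantoin, a further nitrogen source, had a larger median difference between the starvations than the 8 breakdown genes. Over all genes tested, 33.1% were called higher and 20.7% lower in late nitrogen starvation, 31.4% higher and 36.9% lower in late carbon starvation, and 16.1% higher for the late difference. In late nitrogen starvation 7 of 8 rose and in late carbon starvation 7 of 8 fell, and all 8 were called higher in nitrogen starvation, with a median difference of 5.14. DUR1,2 and DUR3 belong to this list as well as to the partners. In late carbon starvation the 8 breakdown genes had a median of 1.09, and the allantoin genes one of -2.87. Of 9 arginine synthesis genes, 1 rose and 6 fell in late nitrogen starvation and 8 fell in late carbon starvation. For the late difference 5 of the 9 were called higher in nitrogen starvation, with a median of 1.48. None of 3 ammonium permease genes was called in late nitrogen starvation, and 2 fell in late carbon starvation. For the late difference 2 of the 3 were called higher in nitrogen starvation, with a median of 2.21. Of 5 regulators of nitrogen catabolite repression, 1 rose and 2 fell in late nitrogen starvation and 4 fell in late carbon starvation. For the late difference 2 of the 5 were called higher in nitrogen starvation, with a median of 0.81.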

How the data were processed

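Per the file headers, the authors extracted each scan with Feature Extraction A.7.5.1, and the deposited processed intensity of each channel is background-corrected and dye-normalized. The deposited log10 ratio was used only to check the arrays against the study's ratio table. The deposited series table of log2 ratios served as an alternative. The labels name RNeasy extraction and the Cy3 and Cy5 labels.

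Log2 ratios of red over green were computed from the processed intensities after equal totals over 10263 non-control spots, as the study's methods state. Outlier-marked spots and spots at background in both channels were removed, saturated spots were kept, and spots of 1 gene were averaged. CAR2 and UGA1 have 1 spot and the other 6 members 2. Duplicate spots of members differed by a median of 0.09 (72 pairs) and by at most 0.88. That highest value was for UGA4, whose spots differed by 0.39, 0.53 and 0.88 on the nitrogen arrays at 120, 240 and 480 min. No member spot was saturated. Array symbols matched the locus tags of the RefSeq gene table for all 8 members. No build is named for the array, so no coordinates are given.

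Means per starvation were fitted with limma 3.58.1 (lmFit, eBayes, R 4.3.3) over all 12 arrays, requiring 4 values per starvation, and over the 6 late arrays, requiring 2. The slope was fitted over the 6 nitrogen arrays, requiring 5. Calls are Benjamini-Hochberg adjusted p under 0.05 over all tested genes. P-values measure the spread between times, not between cultures. The slide could be used as a block over 12 arrays only. An array stood apart where r with the study's ratio table was under 0.95.

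All 8 members are named. Of the partners, those called in nitrogen minus carbon, or with a late mean of at least 1 in size, are named, and for each member up to 3 most alike genes. Members and lists were chosen with earlier results of these data known. Alternatives, 25 in all, were other scalings and backgrounds (normexp offset 50), filters, variance models, blocks, left-out arrays and a minimum change of 1. Keeping outlier-marked spots was added after seeing the data. A change of sign was taken as a reversal only for a value called in either setting. Figures used Python 3.11.15 and matplotlib 3.10.9.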

Additional observations from a re-analysis of the deposited data

Results flagged for a closer look

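UGA1 in carbon starvation at 60 min, at -0.84, lay far below the other 5 carbon values, by a gap that was 0.649 of the whole range. It was the 1 such value among 16 sets of a member in a starvation, where chance gives about 1 in 20, and its array is among the 4 that stand apart. Without that array the mean of UGA1 over the carbon times was 1.21 and called (limma adjusted p = 0.0164), against 0.87 and not called with it (limma adjusted p = 0.0758).

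Differences between the starvations were flagged for the members whose contrast was called. Over all times these were PUT1 (3.35) and UGA4 (2.93). At late times they were PUT1 (3.93), CAR1 (3.83), UGA4 (3.42), CAR2 (2.18), PUT2 (1.22), PUT4 (1.19) and UGA1 (1.19), all higher in nitrogen starvation.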

How the results depend on the processing

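No single member reversed. Of 1090 values of single members under the alternatives, 1011 kept their direction or stayed uncalled, 55 lost the call and 24 gained it. The number of members called over all times for nitrogen minus carbon (2 of 8) was 0 with no further scaling, with median centring, under both normexp settings and in the series table, and 0 to 4 with 1 array left out. In carbon starvation the number (1 of 8) was 2 under those 5 scalings, 3 over the 8 arrays that do not stand apart, and 0 to 2 with 1 array left out. Over all genes, 1410 to 2719 of 5578 were called higher in carbon starvation under the 5 scalings, and 1715 of 5667 over the 8 arrays. Among genes well above background everywhere, PUT2, PUT4, CAR1 and UGA1 were the 4 members tested. Of the 2501 genes tested there, 622 were called higher in nitrogen starvation, 419 in carbon starvation and 225 for nitrogen minus carbon. All 4 members were called in nitrogen starvation, and 0 in carbon starvation and 0 for nitrogen minus carbon. As UGA2, PUT1 and UGA4 were not tested there, this says nothing of their calls. For the late difference (7 of 8) it was 3 to 7 with 1 array left out. For the slope (0 of 8) it was 1, UGA2, under the 5 scalings, and 0 to 1 with 1 array left out. The cause was not tested, except that fewer genes were tested under the background filter. Deviations at the same time correlated between the starvations at r = 0.44 to 0.65 at 5 of the 6 times and at r = -0.41 at 60 min, so the times are not taken as pairs. With time point as a replicate block, 4 members (PUT1, PUT4, CAR1 and UGA4) were called over all times for nitrogen minus carbon, and it changed no member's call at late times.

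Over the whole table, 588 genes were called for nitrogen minus carbon over all times (560 higher), against 170 with no further scaling (131 higher), 77 with median centring (41 higher), 16 under normexp and loess (10 higher), 1338 under normexp and equal totals (239 higher), 171 in the series table (131 higher), 1496 over the 8 arrays (1033 higher), 234 among genes well above background, 896 with the block, and 233 at fewest with 1 array left out. At late times 1253 were called (919 higher), against 1724 with median centring (844 higher), 1953 with the block and 679 at fewest with 1 array left out. For the slope 118 were called, against 578, 673 and 576 with no scaling, median centring and normexp with loess, 578 in the series table, 350 with a trended variance, 188 with no filter, 9 over the 8 arrays and 0 to 344 with 1 array left out. Well above background everywhere, 1244 were called in nitrogen and 1528 in carbon starvation. Higher genes made up 29.0% of the calls in carbon starvation, and 43.8 to 74.5% under the 5 other scalings. They made up 61.5% in late nitrogen starvation (47.6 to 62.3%), 73.3% at late times for nitrogen minus carbon (43.6 to 56.0%) and 80.5% for the slope (62.8 to 88.7%). The median of all genes for nitrogen minus carbon was 0.39, and between -0.48 and 0.00 under other scalings. At late times it was 0.23, and between -0.11 and -0.05. The slide as a block was not run for the late arrays or the slope, where no slide holds a pair of the arrays fitted, and the slope of UGA2 was fitted without a further array only for the array it lacks. The number of arrays, and for UGA4 the dim signal, limit the precision.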
